A study of Mus musculus with 9 samples.

Results

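The Nrf2 antioxidant response genes are Nfe2l2, which encodes the transcription factor Nrf2, its inhibitor Keap1, and 8 genes of antioxidant and phase II enzymes: Nqo1, Hmox1, Gclm, Gclc, Txnrd1, Srxn1, Gsr and Cat. The 10 genes were taken by symbol from a table of counts for 24421 genes, and all 10 were found there. RNA was sequenced from tumors that bEnd.3 cells, 1 mouse line of brain endothelial origin that carries the polyoma middle T oncogene, formed in the flank of male athymic Nu/Nu nude mice, which lack mature T cells but keep macrophages and other host cells. There were 5 tumors from mice given R-propranolol, the enantiomer of propranolol with little activity at beta-adrenergic receptors, intraperitoneally at 6 mg/kg per day, 5 times a week from the second day after cell injection. The other 4 tumors were from mice given the vehicle, ethanol in DPBS, by the same route. One question the study asked of these libraries was which transcripts differ between R-propranolol-treated and vehicle-treated tumors. Neither the labels nor the methods give the time of harvest or the age of the mice.

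Keap1 holds Nrf2 in the cytoplasm and hands it to a Cul3 ubiquitin ligase, so that in unstressed cells the protein is short-lived. Oxidants and electrophiles modify cysteines of Keap1, Nrf2 then accumulates, pairs with a small Maf protein in the nucleus and binds antioxidant response elements near its target genes. Because this switch acts on protein stability, the mRNA of Nfe2l2 or Keap1 need not report it, and the mRNAs of the targets are the usual readout. Bulk RNA of a tumor adds up all of its cells, so fewer cells of a type and less RNA per cell cannot be told apart.

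Of the 10 genes, 7 had promoters in the RefSeq table (GRCm38.p6), which runs from 250 bases before each transcript start to 50 after it and holds 9 promoters of these genes, 3 of them of Txnrd1. Hmox1, Gclc and Gsr had none there. Both strands were searched for the core of the antioxidant response element, TGACNNNGC. It was found in 4 of the 9 promoters (44.4%), against 12.4% of all 32851 promoters in the table: those of Nfe2l2, Gclm, Txnrd1 and Srxn1. A looser form, TGAGNNNGC, was found in 1 of the 9 (11.1%), that of Srxn1, against 17.6% of all promoters. Keap1, Nqo1 and Cat had neither form in these windows, which says only that the letters are not there. The 250 bases before the start are printed for the 4 promoters with a match, to show where the matches lie among the genes whose levels are described next. Sequences run 5′ to 3′ on the gene's strand, and capitals mark the core forms; a match on the other strand appears as its reverse complement, GCNNNGTCA or GCNNNCTCA.
Srxn1, chr2:152105274-152105523, plus strand: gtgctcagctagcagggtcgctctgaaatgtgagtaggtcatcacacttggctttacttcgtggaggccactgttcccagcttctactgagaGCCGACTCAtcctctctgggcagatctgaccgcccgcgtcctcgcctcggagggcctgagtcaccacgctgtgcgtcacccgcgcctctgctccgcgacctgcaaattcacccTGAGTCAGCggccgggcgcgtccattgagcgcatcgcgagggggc
Gclm, chr3:122245307-122245556, plus strand: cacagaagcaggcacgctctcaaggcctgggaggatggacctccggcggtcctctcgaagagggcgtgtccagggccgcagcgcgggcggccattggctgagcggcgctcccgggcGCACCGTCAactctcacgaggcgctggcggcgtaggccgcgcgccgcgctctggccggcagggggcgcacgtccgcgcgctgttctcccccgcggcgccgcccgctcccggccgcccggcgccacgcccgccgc
Txnrd1, chr10:82858956-82859205, plus strand: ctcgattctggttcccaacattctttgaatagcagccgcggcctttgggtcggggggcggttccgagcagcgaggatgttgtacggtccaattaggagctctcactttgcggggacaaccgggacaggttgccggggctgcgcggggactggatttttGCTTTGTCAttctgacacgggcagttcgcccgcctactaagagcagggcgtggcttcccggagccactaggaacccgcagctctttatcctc
Nfe2l2, chr2:75704664-75704913, minus strand: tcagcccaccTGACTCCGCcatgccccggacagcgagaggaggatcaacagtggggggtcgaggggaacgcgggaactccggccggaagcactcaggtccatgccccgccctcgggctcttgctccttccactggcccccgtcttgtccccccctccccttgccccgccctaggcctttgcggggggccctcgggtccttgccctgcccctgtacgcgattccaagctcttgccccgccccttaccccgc
Srxn1 held 2 of the looser forms in this stretch, at −158 to −150 and at −45 to −37 from the start, and its TGACNNNGC match lay after the start, at 28 to 36. The looser form of Srxn1 at −45 to −37 contains an AP-1 site, TGAGTCA, and a second AP-1 site lies at −102 to −96. An AP-1 site in either orientation was found in 5.2% of all promoters. Gclm had its match at −134 to −126, Txnrd1 at −92 to −84 and Nfe2l2 at −240 to −232. Such matches are letters in a window and were not measured as sites of binding.

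Counts over genes ranged from 21084749 to 27852630 in R-propranolol tumors and from 20599904 to 24949010 in vehicle tumors. The levels given here are CPM, the count of a gene scaled by the library size of its tumor, which was itself adjusted by the TMM method. The TMM factor was 0.753 in R-propranolol replicate 5 and 0.966 to 1.10 in the other 8 tumors. A lower factor raises every level in a tumor. R-propranolol replicate 5 stood apart: 20 skeletal muscle markers took 16.6% of its counts, against 0.00662% to 0.0658% in the other 8 tumors, and 14 adipocyte markers summed to 5952 CPM, against 156 to 277 CPM in the other R-propranolol tumors and 199 to 507 CPM in vehicle tumors. Reads with several places were 7.86% in it and 3.46% to 3.99% elsewhere. All 14 endothelial markers had counts in all 9 tumors, and they summed to 1006 to 1511 CPM in R-propranolol tumors and to 1027 to 1239 CPM in vehicle tumors. As shares of counts, they took 0.0767% in R-propranolol replicate 5 and 0.105% to 0.146% in the other 8 tumors. Each result that rests on this tumor is therefore given with and without it. The titles of the first 2 vehicle replicates share a number that differs in all other titles, and what it stands for is not stated; both were kept as tumors of their own. Nothing else in the labels says that the tumors came from separate mice, so the p-values measure the spread between these samples.

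All 10 genes passed the filter on low counts, as did 13901 of the 24421 genes in all. In edgeR's quasi-likelihood test, 0 of the 10 differed between R-propranolol and vehicle tumors at an adjusted p under 0.05, where the share of all 13901 genes called was 0%. At an unadjusted p under 0.05, 0 of the 10 were found, against 2.3% of all genes (2.01% higher and 0.288% lower in R-propranolol tumors), and 0 of the 10 had groups that did not overlap, against 1.26% of all genes. DESeq2 and limma-voom also called 0 of the 10, and 0 of them at an unadjusted p under 0.05. The fitted log2 fold change, R-propranolol over vehicle, was above 0 for 5 genes and below 0 for 5, with values of −0.16 to 0.97 and a median of −0.0025. Over all genes, 54.3% were above 0 and the median was 0.03. Without R-propranolol replicate 5, 9 of the 10 were above 0 and 1 below, with a median of 0.08, against 53.7% of all genes above 0 and a median of 0.01. In that comparison 0 of the 10 again passed, at an adjusted p (0% of all genes) or an unadjusted one (3.78% of all genes), and 0 had groups that did not overlap (2.92% of all genes).

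**Figure D1:**
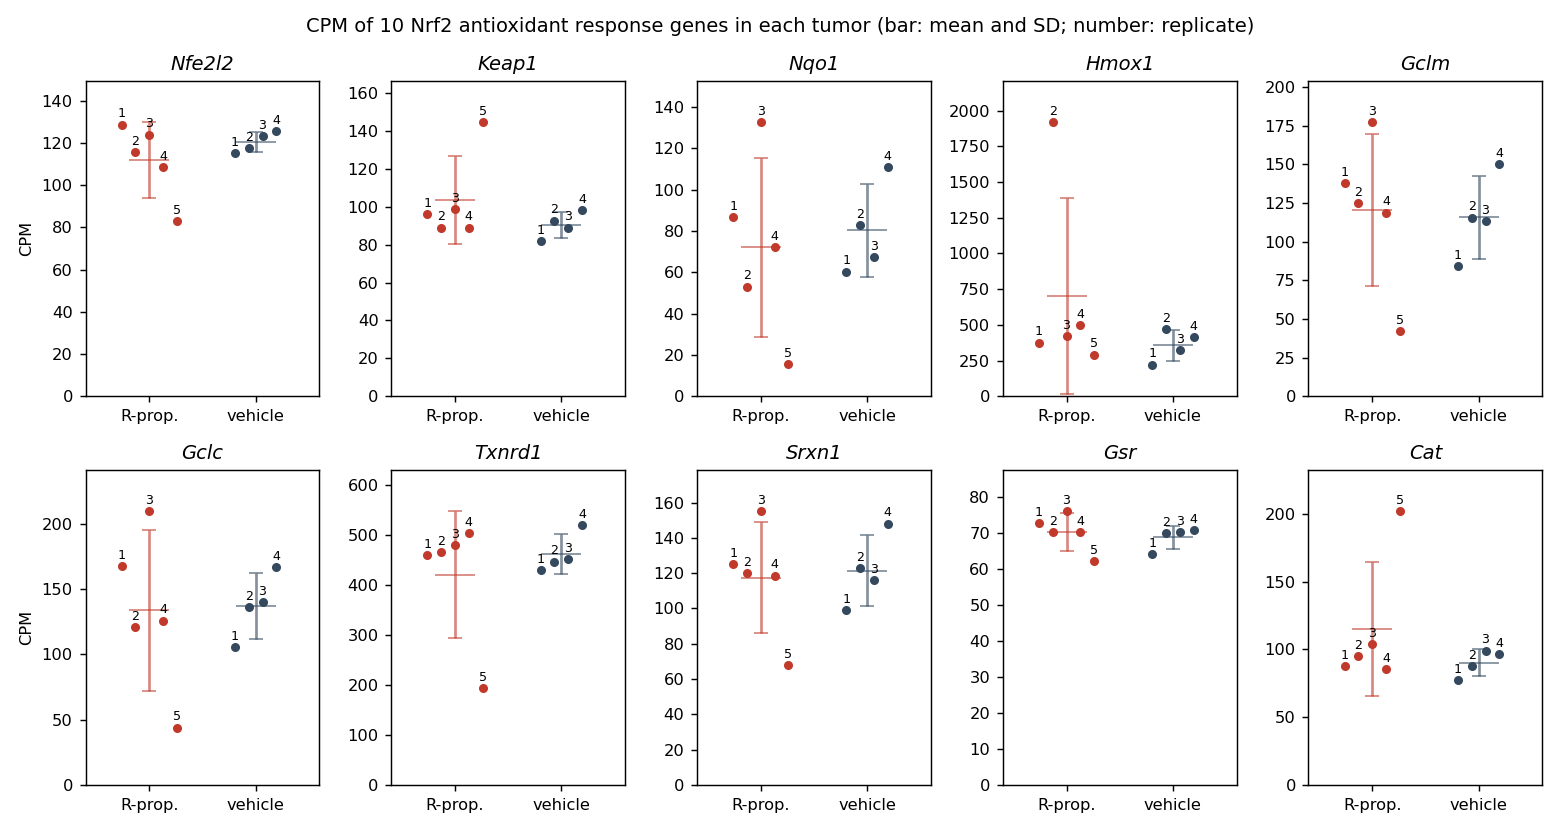
CPM of each of the 10 genes (y axis, from 0) in the 5 R-propranolol (red) and 4 vehicle (dark blue) tumors. Points are tumors with their replicate numbers, and bars are the mean and SD of the group. R-propranolol replicate 5 is the lowest tumor for 7 genes and the highest for Keap1 and Cat, and replicate 2 is at 1919 CPM for Hmox1.

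Nfe2l2 mRNA was present at like levels in most tumors. It is the gene of Nrf2 itself (GRCm38 chr2:75675513-75704641, minus strand). Nfe2l2 had 129, 116, 124, 109 and 83.2 CPM in R-propranolol replicates 1 to 5, against 115, 118, 123 and 126 CPM in vehicle replicates 1 to 4. The groups overlapped, with R-propranolol replicate 1 above all vehicle tumors and replicates 4 and 5 below them. The log2 fold change of Nfe2l2 was −0.10 (SE 0.13, 95% interval −0.40 to 0.19, adjusted p = 0.878), and −0.02 (interval −0.17 to 0.13) without replicate 5.

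Keap1 (chr9:21229730-21239361, minus strand) encodes the adaptor that binds Nrf2. Keap1 had 96.2, 89.0, 98.9, 89.0 and 145 CPM in R-propranolol tumors, against 81.7, 92.7, 89.1 and 98.2 CPM in vehicle tumors. One tumor, R-propranolol replicate 5, was far above the others, and the other 8 lay close together. Fitted over all 9 tumors, its log2 fold change was 0.20 (SE 0.16, interval −0.16 to 0.55, adjusted p = 0.876), and 0.04 (interval −0.12 to 0.21) without replicate 5. Of its 4693 exon bases, 510 are shared with Gm16754 on the other strand, and whether the counting used strand is not stated.

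Nqo1 (chr8:107388225-107403206, minus strand), which encodes a quinone reductase and is among the most used readouts of Nrf2, varied most widely between tumors among the enzymes of this group other than Hmox1. It had 86.7, 53.0, 133, 72.1 and 15.5 CPM in R-propranolol tumors, against 60.3, 82.8, 67.3 and 111 CPM in vehicle tumors. The highest and the lowest of all 9 tumors were both R-propranolol tumors, replicates 3 and 5. For Nqo1 the log2 fold change was −0.16 (SE 0.50, interval −1.28 to 0.97, adjusted p = 0.922), and 0.10 (interval −0.57 to 0.77) without replicate 5.

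Hmox1 (chr8:75093621-75100589, plus strand) encodes heme oxygenase 1, which cleaves heme into biliverdin, iron and carbon monoxide. Hmox1 had 375, 1919, 423, 497 and 292 CPM in R-propranolol tumors, against 221, 472, 323 and 413 CPM in vehicle tumors. Replicate 2 was at 4.87 times the median of the other 8 tumors, and apart from it the groups overlapped, with 1 R-propranolol tumor above the highest vehicle tumor and none below the lowest. The log2 fold change of Hmox1, 0.97 (SE 0.57, interval −0.32 to 2.27, adjusted p = 0.876), was the highest of the 10 genes and rested on this tumor. Without replicate 2 it was 0.15 (SE 0.26, interval −0.45 to 0.76), and without replicate 5 it was 1.16 (SE 0.54, interval −0.06 to 2.39).

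Gclm and Gclc encode the modifier and the catalytic subunit of glutamate-cysteine ligase, the rate-limiting enzyme of glutathione synthesis. Gclm (chr3:122245557-122270732, plus strand) had 138, 125, 177, 119 and 42.3 CPM in R-propranolol tumors, against 84.2, 116, 113 and 150.04 CPM in vehicle tumors. Its R-propranolol group held the highest and the lowest of the 9 tumors. With all 9 tumors the log2 fold change was 0.05 (SE 0.35, interval −0.75 to 0.86, adjusted p = 0.966), and 0.27 (interval −0.15 to 0.69) without replicate 5. Of the 6291 exon bases of Gclm, 296 are shared with Gm17494 on the other strand and 244 with Gm6061 on the same strand.

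Gclc (chr9:77754535-77794485, plus strand) had 168, 121, 209.9, 126 and 43.9 CPM in R-propranolol tumors, against 106, 136, 139.9 and 167 CPM in vehicle tumors. As for its partner subunit, R-propranolol replicate 3 was the highest tumor and replicate 5 the lowest. The log2 fold change of Gclc was −0.04 (SE 0.38, interval −0.89 to 0.81, adjusted p = 0.978), and 0.19 (interval −0.27 to 0.65) without replicate 5.

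Txnrd1 (chr10:82833951-82897712, plus strand) encodes the cytosolic thioredoxin reductase, a selenoprotein that keeps thioredoxin reduced. Txnrd1 had 459.8, 466, 479.7, 504 and 194 CPM in R-propranolol tumors, against 429, 447, 452 and 519 CPM in vehicle tumors. The first 4 R-propranolol tumors lay within the vehicle range and replicate 5 lay far below it. Its log2 fold change was −0.13 (SE 0.26, interval −0.72 to 0.45, adjusted p = 0.885). Without replicate 5 it was 0.05 (interval −0.13 to 0.22).

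Srxn1 (chr2:152105516-152111376, plus strand) encodes sulfiredoxin, which repairs overoxidized peroxiredoxins. Srxn1 had 125, 120.1, 155, 119 and 68.0 CPM in R-propranolol tumors, against 98.9, 123, 116 and 148 CPM in vehicle tumors. R-propranolol replicate 3 and vehicle replicate 4 were the highest of their groups. The log2 fold change of Srxn1 was −0.05 (SE 0.22, interval −0.55 to 0.45, adjusted p = 0.946), and 0.09 (interval −0.21 to 0.40) without replicate 5.

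Gsr (chr8:33652523-33698163, plus strand) encodes glutathione reductase, which returns oxidized glutathione to its reduced form. It had the narrowest spread of the 10 genes, with 72.8, 70.3, 76.3, 70.4 and 62.2 CPM in R-propranolol tumors, against 64.2, 70.2, 70.4 and 70.9 CPM in vehicle tumors. The lowest tumor of each group, R-propranolol replicate 5 and vehicle replicate 1, set most of that spread. In the comparison Gsr had a log2 fold change of 0.03 (SE 0.09, interval −0.16 to 0.23, adjusted p = 0.911), the narrowest interval of the 10 genes with all 9 tumors. Without replicate 5 the value was 0.07 (interval −0.06 to 0.20).

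Cat (chr2:103453849-103485160, minus strand) encodes catalase, the peroxisomal enzyme that splits hydrogen peroxide. Cat had 87.7, 95.1, 104, 85.2 and 202 CPM in R-propranolol tumors, against 77.2, 87.7, 99.1 and 96.5 CPM in vehicle tumors. As for Keap1, replicate 5 was far above the other 8 in CPM. Over all 9 tumors Cat had a log2 fold change of 0.35 (SE 0.26, interval −0.25 to 0.95, adjusted p = 0.876), and 0.04 (interval −0.17 to 0.26) without replicate 5.

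**Figure D2:**
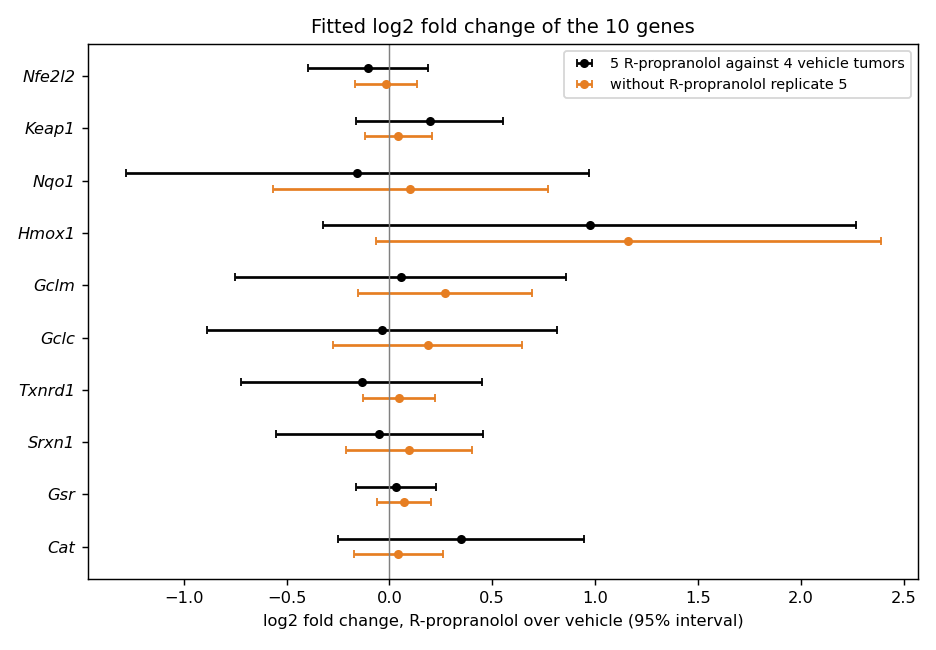
Fitted log2 fold change of each gene, R-propranolol over vehicle (x axis), with its 95% interval, for all 9 tumors (black) and without R-propranolol replicate 5 (orange). All intervals include 0, from the narrow interval of Gsr (−0.16 to 0.23) to the wide one of Hmox1 (−0.32 to 2.27), and all are narrower without replicate 5.

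Per kilobase of exon (all exons of the gene merged), Hmox1 was the most abundant of the 10 mRNAs, with a median of 242 CPM per kb in R-propranolol tumors and 210.1 CPM per kb in vehicle tumors. Txnrd1 followed at 65.8 CPM per kb in R-propranolol tumors and 63.4 CPM per kb in vehicle tumors. The levels of Hmox1 did not overlap with those of Txnrd1 in either group. Nqo1 had medians of 46.5 and 48.3 CPM per kb, and Srxn1 had 42.6 and 42.4 CPM per kb, in R-propranolol and vehicle tumors. Gclc, Cat, Nfe2l2, Gsr and Keap1 came after them. Gclm was last at 19.8 CPM per kb in R-propranolol tumors and 18.2 CPM per kb in vehicle tumors. Below Txnrd1, each gene overlapped with the next in both groups, except that in vehicle tumors Nfe2l2 lay above Gsr and Gsr above Keap1 without overlap. The order of the 10 genes was the same in both groups apart from Cat and Gclc, which changed places.

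The widest departures were those of single tumors. In R-propranolol replicate 5, Nqo1 was at 0.207 of the vehicle median, Gclc at 0.318, Gclm at 0.369, Txnrd1 at 0.432 and Srxn1 at 0.569. Nfe2l2 was at 0.690, Hmox1 at 0.794 and Gsr at 0.886 of the vehicle median in that tumor. Keap1 and Cat stood on the other side, at 1.59-fold and 2.20-fold. The TMM factor of this tumor, 0.753, raises all of these ratios, and its Keap1 count lay within the range of the other 8 tumors. Over the 10 genes the median log2 ratio of replicate 5 to the vehicle median was −0.67 and 8 of 10 (80%) were below 0, against a median of −0.04 and 51.4% below 0 over all 13901 genes. Of the 14 endothelial markers 3 were below the vehicle median in this tumor, Flt1 at 0.200, Tie1 at 0.345 and Eng at 0.975 of it. The other 11 were above it, from Esam at 1.0004-fold and Cdh5 at 1.08-fold to Tek at 9.04-fold and Vwf at 11.1-fold. The median log2 ratio of the 14 markers was 1.72. The muscle and adipocyte markers moved with these values in the same tumor, and their part in them was not tested.

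**Figure D3:**
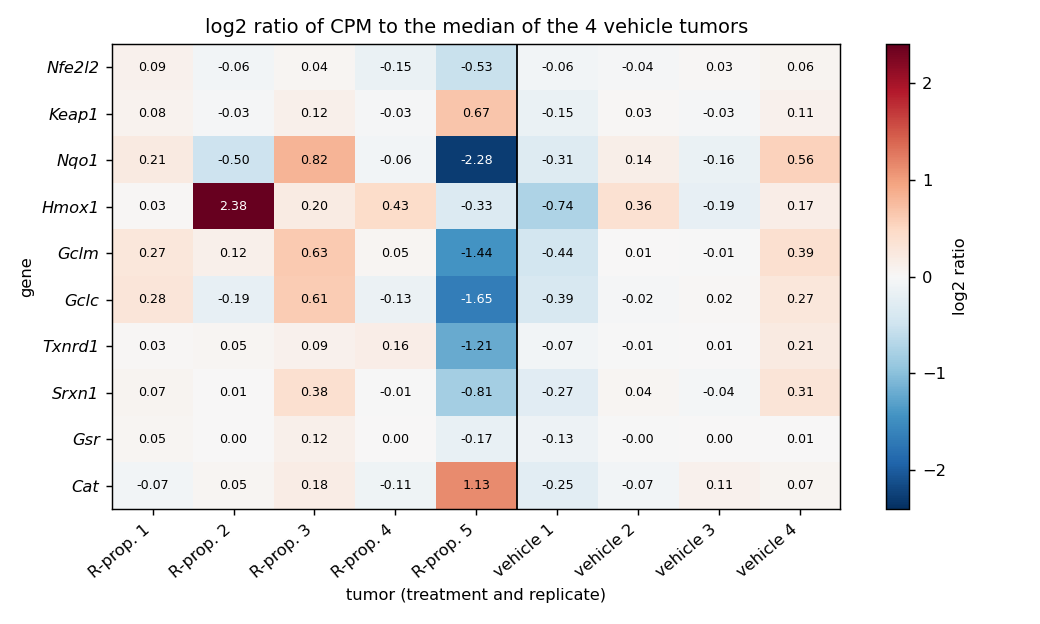
log2 ratio of the CPM of each gene (y axis) in each tumor (x axis, R-propranolol left of the line and vehicle right of it) to the median of the 4 vehicle tumors. Red is above and blue below that median; the column of R-propranolol replicate 5 is blue for 8 genes, with Nqo1 lowest at −2.28, and the darkest red cell is Hmox1 in replicate 2, at 5.22 times that median.

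Among the vehicle tumors, replicate 1 was the lowest of its group in CPM for all 10 genes. Its TMM factor, 1.10, was the highest of the 9 tumors, which lowers every level in it. R-propranolol replicate 3 was the highest of the 9 tumors for 5 genes. Nqo1, Gclm, Gclc, Srxn1 and Txnrd1, grouped after their values had been seen as the genes that varied together, were summed in each tumor. Their summed level was 977, 885, 1155, 939 and 364 CPM in R-propranolol replicates 1 to 5, against 779, 904, 889 and 1095 CPM in vehicle replicates 1 to 4. The order of the tumors by this sum was nearly the reverse of their order by 12 macrophage markers. Those markers summed to 1492, 3716, 812, 1743 and 4284 CPM in R-propranolol tumors, against 2302, 1783, 2129 and 883 CPM in vehicle tumors. R-propranolol replicate 3 and vehicle replicate 4 had the highest sums of the 5 genes and the lowest macrophage sums, and R-propranolol replicate 5 had the lowest sum of the 5 genes and the highest macrophage sum. The order is not a strict one: R-propranolol replicate 2 had more of the 5 genes than vehicle replicate 1 and more of the macrophage markers too. All 12 macrophage markers had counts in every tumor. Both sums come from the same libraries and are shares of one total, the grouping was made on these values, and the part of macrophage content in the levels of the 5 genes was not tested.

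**Figure D4:**
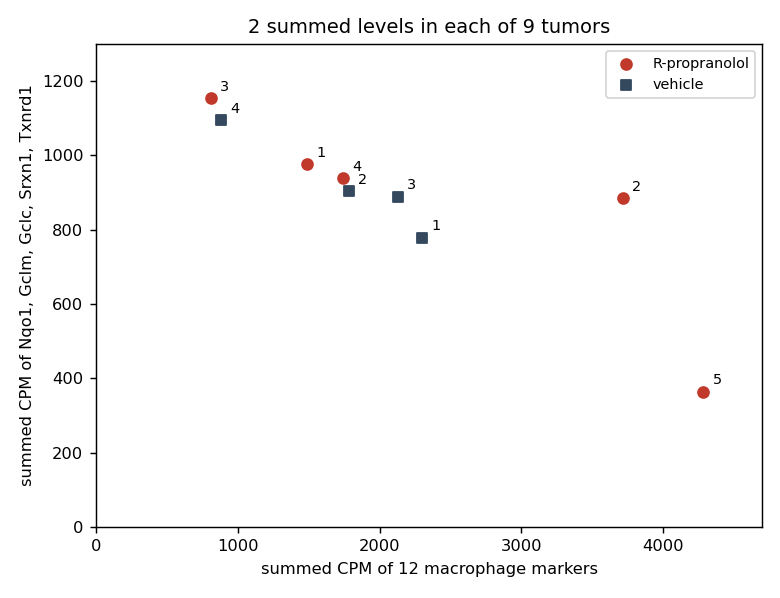
Summed CPM of Nqo1, Gclm, Gclc, Srxn1 and Txnrd1 (y axis) against the summed CPM of 12 macrophage markers (x axis), both from 0, in the 5 R-propranolol tumors (red circles) and the 4 vehicle tumors (dark blue squares), numbered by replicate. The points run from R-propranolol replicate 3 (1155 and 812 CPM) to R-propranolol replicate 5 (364 and 4284 CPM), and tumors of both groups are mixed between them.

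The partners and regulators of Nrf2 include the small Maf proteins, with which it binds DNA, and Bach1 and Bach2, which compete for the same elements. Of the 14 listed, 13 were tested and 0 were found at an unadjusted p under 0.05; 9 were above 0 and 4 below, with a median of 0.08. Mafk, a small Maf, averaged 62.1 ± 6.57 CPM in R-propranolol tumors and 54.0 ± 4.83 CPM in vehicle tumors (SD, n = 5 and 4), and its log2 fold change was 0.20 (SE 0.11). Gsk3b, a kinase that marks Nrf2 for degradation independently of Keap1, averaged 157 ± 12.2 CPM in R-propranolol tumors and 143 ± 8.99 CPM in vehicle tumors (0.13, SE 0.09). Sqstm1, which binds Keap1 and directs it to autophagy, averaged 664 ± 86.4 CPM in R-propranolol tumors and 637 ± 100.2 CPM in vehicle tumors (0.06, SE 0.16). Without R-propranolol replicate 5, 3 of the 13 were at an unadjusted p under 0.05, all higher in R-propranolol tumors (2.65% of all genes): Mafg at 0.15 (SE 0.06), Mafk at 0.23 (SE 0.09) and Gsk3b at 0.17 (SE 0.07). Of the 13, only Mafg then had groups that did not overlap (2.92% of all genes). All 3 differences were small, and 0 passed after adjustment.

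**Figure D5:**
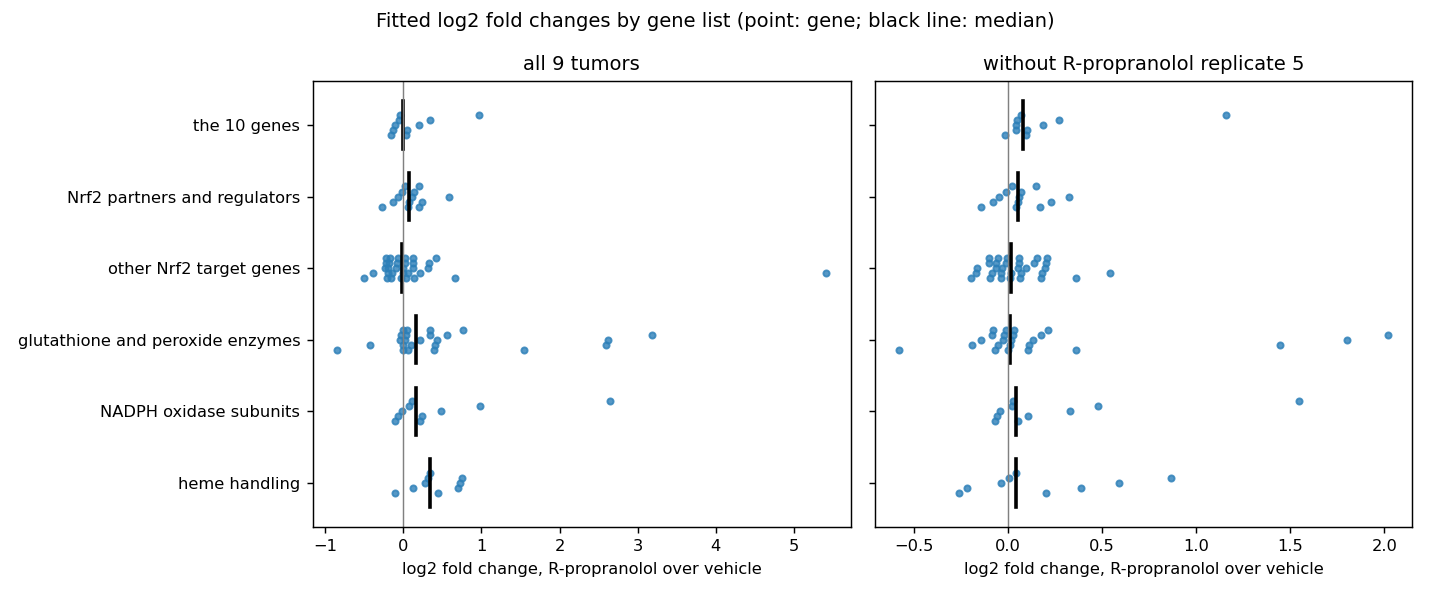
Fitted log2 fold changes, R-propranolol over vehicle (x axis), of the genes of 6 lists (y axis), for all 9 tumors (left) and without R-propranolol replicate 5 (right); the 2 x axes have different ranges. Points are genes and black lines medians: the median of the 10 genes was 0.08 without replicate 5, and that of the heme handling list was 0.35 with all tumors and 0.04 without it.

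Of 32 other known target genes of Nrf2, all were tested, 14 were above 0 and 18 below, with a median of −0.02. Aldh1a1, an aldehyde dehydrogenase, was the only one at an unadjusted p under 0.05 (2.01% of all genes in this direction). It had 1.06, 3.40, 0.503, 0.615 and 253 CPM in R-propranolol tumors, against 1.64, 1.002, 1.79 and 0.380 CPM in vehicle tumors. The log2 fold change of Aldh1a1, 5.41 (SE 1.81), rested on replicate 5 and was 0.20 (SE 0.69) without it. Tkt, the transketolase of the pentose phosphate pathway, averaged 247 ± 72.5 CPM in R-propranolol tumors and 196 ± 23.8 CPM in vehicle tumors (0.33, SE 0.20), and was at 0.14 without replicate 5. Ftl1, the ferritin light chain, averaged 5281 ± 1829.6 CPM in R-propranolol tumors and 5202 ± 1122 CPM in vehicle tumors (0.02, SE 0.32); it has near-identical copies elsewhere in the genome, so its counts are uncertain. Without replicate 5, Ugdh, which makes UDP-glucuronic acid, was the 1 gene of this list at an unadjusted p under 0.05 (2.65% of all genes in this direction). Its log2 fold change was 0.36 (SE 0.15). Its highest level was 336 CPM in R-propranolol replicate 2, against at most 265 CPM in any other tumor. The median of the list was 0.02 without replicate 5.

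In R-propranolol replicate 5, 23 of these 32 targets were below the median of the other 8 tumors and 9 above it, with a median of 0.573 of that level. The 5 low and 3 high genes named next were singled out after their values had been seen. Slc7a11, the cystine importer that feeds glutathione synthesis, had 4.59 CPM in that tumor, against 61.9 to 67.1 CPM in the other R-propranolol tumors and 46.8 to 103 CPM in vehicle tumors. Aldh3a1 was at 0.050 of the median of the other 8 tumors there, and Ephx1, an epoxide hydrolase, at 0.273. Txn1, the thioredoxin that Txnrd1 reduces, was at 0.440, and the peroxiredoxin Prdx1 was at 0.476. Above that median were Gstm5, a glutathione S-transferase, at 3.56-fold, Gsta4, another, at 2.03-fold, and Me1, the malic enzyme that makes NADPH, at 2.03-fold. Gsta4 did not set this tumor apart, with 26.6 CPM in it and up to 26.3 CPM in the others.

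Heme handling genes were listed because heme is the substrate of heme oxygenase 1. Of the 10 listed, 9 were in the table and tested, 8 were above 0 and 1 below, with a median of 0.35, and of 0.04 without R-propranolol replicate 5. Hpx, the plasma protein hemopexin that binds free heme, was the only one at an unadjusted p under 0.05 (2.01% of all genes in this direction) and the only one whose groups did not overlap (1.26% of all genes). It had 3.46, 3.04, 2.91, 1.72 and 1.73 CPM in R-propranolol tumors, against 1.55, 1.58, 1.35 and 1.61 CPM in vehicle tumors. Its level was low throughout, and its log2 fold change was 0.76 (SE 0.28, adjusted p = 0.876), and 0.87 (SE 0.25) without replicate 5. Hpx is made mainly by the liver and is also among the 20 hepatocyte markers. Of the 17 markers tested, Hpx included, 16 were above 0, with a median log2 fold change of 2.24, and 9 were higher at an unadjusted p under 0.05 (2.01% of all genes). The markers summed to 152 to 631 CPM in R-propranolol tumors, to 152 to 272 CPM without replicate 5, and to 163 to 252 CPM in vehicle tumors. A few genes carried these sums: Trf and Cyp2e1 made up 91.2% of the sum in replicate 5, and Apob had 76.5 to 173 CPM in vehicle tumors. Alb, the defining marker, had 20.7 CPM in replicate 5, 12.9 to 54.8 CPM in the other R-propranolol tumors and 0.595 to 22.7 CPM in vehicle tumors. The part of hepatocyte RNA in the level of Hpx was not tested. Cpox, an enzyme of heme synthesis, averaged 20.2 ± 13.4 CPM in R-propranolol tumors and 12.4 ± 1.42 CPM in vehicle tumors (0.70, SE 0.39), and was at 0.20 without replicate 5.

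The tumor with the high Hmox1 level, R-propranolol replicate 2, was also the highest of the 9 tumors for Cd163, the macrophage receptor for haptoglobin-bound hemoglobin, and for the iron exporter Slc40a1, singled out after its values had been seen. Of the 9 heme handling genes tested, 5 were above the median of the other 8 tumors in replicate 2 and 4 below it, and Alas1, the first enzyme of heme synthesis, and Tfrc, the transferrin receptor, were lowest of the 9 tumors there, at 0.682 and 0.686 of that median. Cd163 had 121, 602, 94.3, 171 and 558 CPM in R-propranolol tumors, against 210.4, 194, 244 and 102 CPM in vehicle tumors (log2 fold change 0.72, SE 0.60, and 0.39 without replicate 5). Slc40a1 had 66.5, 232, 35.2, 94.97 and 11.9 CPM in R-propranolol tumors, against 85.2, 83.8, 63.7 and 49.7 CPM in vehicle tumors. Replicate 5 had a Cd163 level near that of replicate 2, with Hmox1 at 292 CPM and Slc40a1 the lowest of all tumors. Replicate 2 was unlike the others in many genes: 985 of 13901 were at least 3-fold above the median of the other 8 tumors in it, and Hmox1 was at place 571 of them. Erythroid markers summed to 5.61 to 27.2 CPM in R-propranolol tumors and to 4.22 to 15.1 CPM in vehicle tumors, the highest value again in replicate 2, and 4 or 5 of the 8 in the table were at 0 in each tumor. The globin genes Hba-a1, Hba-a2 and Hbb-bs were at 0 counts in all 9 tumors. The sum therefore holds nothing from them and does not show how much red-cell RNA the tumors held. What these values contribute to the Hmox1 level was not tested.

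The other enzymes of glutathione and peroxide metabolism held 24 tested genes of 26 listed. Of these, 0 were at an unadjusted p under 0.05, 17 were above 0 and 7 below, and the median was 0.16, and 0.01 without R-propranolol replicate 5. Gpx7, a peroxidase of the endoplasmic reticulum, had 1.13, 29.7, 1.19, 0.574 and 27.3 CPM in R-propranolol tumors, against 2.75, 1.58, 3.33 and 0.237 CPM in vehicle tumors, with a log2 fold change of 2.59 (SE 1.26), and of 2.02 without replicate 5. Sod3, the extracellular superoxide dismutase, had 11.6, 184, 3.56, 2.62 and 237 CPM in R-propranolol tumors, against 16.4, 17.0, 21.2 and 2.33 CPM in vehicle tumors (2.62, SE 1.31, and 1.80 without replicate 5). In both genes R-propranolol replicates 2 and 5 were high and the other 3 lay within the vehicle range. Prdx6, which had the highest mean CPM of this list over all 9 tumors, averaged 279 ± 74.9 CPM in R-propranolol tumors and 280.3 ± 14.5 CPM in vehicle tumors (−0.01, SE 0.21). Without replicate 5, Gpx1, the cytosolic glutathione peroxidase, was the 1 gene at an unadjusted p under 0.05, lower in R-propranolol tumors at −0.14 (SE 0.06), against 1.13% of all genes in that direction.

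NADPH oxidases make the superoxide and hydrogen peroxide that these enzymes remove. Of 14 subunits listed, 10 were tested and 0 were at an unadjusted p under 0.05; 7 were above 0 and 3 below, with a median of 0.16, and of 0.04 without R-propranolol replicate 5. Duox1 averaged 8.28 ± 11.2 CPM in R-propranolol tumors and 1.31 ± 0.856 CPM in vehicle tumors (2.65, SE 1.25, and 1.55 without replicate 5), with 13.4 CPM in replicate 2 and 25.8 CPM in replicate 5. Ncf1, a subunit of the phagocyte oxidase, had 21.3, 75.8, 9.30, 23.3 and 99.3 CPM in R-propranolol tumors, against 26.4, 24.9, 29.2 and 11.96 CPM in vehicle tumors (0.99, SE 0.65, and 0.48 without replicate 5). Its high tumors were again replicates 2 and 5, the pair with the most macrophage marker RNA, and that relation was not tested. Rac1, a small GTPase that the oxidase needs, averaged 449.8 ± 37.8 CPM in R-propranolol tumors and 453 ± 18.7 CPM in vehicle tumors (−0.01, SE 0.11).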

How the data were processed

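RNA of 9 tumors was sequenced, with 1 library per tumor and pairs of 150-base reads from the NEBNext Ultra kit. The submitters' processing notes name FastQC, STAR, HTSeq, edgeR and the mm10 build, and the deposited values are counts, not normalized, with 1 line per gene symbol. For tool versions, annotation and strand, the sources used here give nothing. Multi-mapping reads are left out of such counts, which can lower genes with near-identical copies. Of the reads listed, those outside genes were 13.4% to 15.4% and ambiguous ones 1.81% to 1.98%.

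Counts were filtered with filterByExpr (minimum count 10, minimum total 15), scaled by TMM and tested with edgeR 4.0.16 in R 4.3.3 (quasi-likelihood, Benjamini-Hochberg over 13901 genes). SE and intervals use the posterior quasi-dispersion. The test was checked on simulated counts. DESeq2 1.42.0 and limma 3.58.1 were alternatives. Gene places are from GENCODE M21.

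The 10 genes and the other lists were chosen with earlier results of these data known. From each other list, the text names genes at an unadjusted p under 0.05, the 2 smallest p and the gene of highest mean CPM over all 9 tumors, and says where others were singled out later. The array data and cell culture experiments were not analysed here.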

Additional observations from a re-analysis of the deposited data

Results flagged for a closer look

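Each of the 10 genes and each of 7 marker sums was checked in both groups for a tumor lying far from the rest, 34 checks in all, by the gap to the nearest tumor as a share of the group's range. Chance alone would set apart about 1 in 20 groups of independent, normally distributed values, and 9 were found, 5 of them among the 10 genes. The checks share the same tumors and scaling and are not independent, so the number found cannot be judged against that rate. In R-propranolol tumors, Hmox1 was at 1919 CPM in replicate 2, where the next tumor was at 497 CPM. R-propranolol replicate 5 accounted for 3 of the genes: Keap1 at 145 CPM with the next at 98.9 CPM, Cat at 202 CPM with the next at 104 CPM, and Txnrd1 at 194 CPM with the next at 459.8 CPM. In vehicle tumors, Gsr was at 64.2 CPM in replicate 1, where the next was at 70.2 CPM. The gaps of Keap1 and Gsr depend on the TMM factors, 0.753 in R-propranolol replicate 5 and 1.10 in vehicle replicate 1. The same R-propranolol replicate 5 was apart for skeletal muscle markers at a summed 232755 CPM (next 73.9 CPM), adipocyte markers at 5952 CPM (next 277 CPM), hepatocyte markers at 631 CPM (next 272 CPM) and keratinocyte markers at 13.2 CPM (next 4.06 CPM). Trf and Cyp2e1 made up 91.2% of that hepatocyte sum, and 5 of the 20 hepatocyte markers were highest of the 9 tumors in replicate 5. Keratinocyte markers were higher in vehicle replicate 1, at 19.5 CPM, than in R-propranolol replicate 5. Skeletal muscle markers summed to 600 and 554 CPM in vehicle replicates 1 and 3. They summed to 63.5 to 73.9 CPM in the tumors other than these and R-propranolol replicate 5. Without replicate 5, 10 of 12 tested muscle markers were lower in R-propranolol tumors at an unadjusted p under 0.05 (edgeR, 1.13% of all genes). That comparison is therefore not free of a difference in muscle RNA.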

How the results depend on the processing

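Under all 19 alternatives 0 of the 10 genes passed an adjusted p, and the call of 0 genes overall changed only with DESeq2's Wald test, which called 2 genes, neither of them among the 10. Genes at an unadjusted p under 0.05 numbered 320 in the main comparison, 656 with DESeq2, 139 with limma-voom, 626 without a filter on low counts and 100 with vehicle replicates 1 and 2 summed. Library size alone in place of TMM gave a median over all genes of −0.10, against 0.03 with TMM, and there Gclm was at −0.024 and Gsr at −0.093. In that setting Keap1 was at 0.033, against 0.20 with TMM, and Cat at 0.15, against 0.35. Gclm was also below 0 with limma-voom (−0.065) and with vehicle replicates 1 and 2 summed (−0.017).

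Leaving out each tumor in turn, the median of the 10 genes ran from −0.13 to 0.08. Gclm ranged from −0.13 to 0.27, Nqo1 from −0.50 to 0.10, Gclc from −0.26 to 0.19, Txnrd1 from −0.21 to 0.046 and Srxn1 from −0.16 to 0.094. With R-propranolol replicates 2 and 5 both left out, a setting added after seeing the data, Nfe2l2 was at 0.0012, Nqo1 at 0.28, Gclc at 0.30, Txnrd1 at 0.061, Srxn1 at 0.13 and Hmox1 at 0.28. Keap1, Hmox1 and Cat were above 0 in all 19.

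Whether the replicate numbers pair the tumors is not stated. Deviations of same-numbered tumors from their group means correlated across genes at −0.28, 0.08, −0.64 and 0.53. By these deviations, 1 of 4 R-propranolol tumors resembled most the vehicle tumor of its own number. The R-propranolol mean included replicate 5, so the high muscle RNA of that tumor enters each R-propranolol deviation. The check therefore cannot decide whether the tumors were paired. With a replicate block, in which R-propranolol replicate 5 has no partner, Nqo1 was at 0.059, Gclc at 0.17, Txnrd1 at 0.050 and Srxn1 at 0.10, and Hmox1 at 0.85, the 1 gene of the 10 at an unadjusted p under 0.05, against 2.04% of all genes under this block. The lowest count of any of the 10 genes in any tumor was 233, for Nqo1 in R-propranolol replicate 5.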

Other observations

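Some genes of redox metabolism outside the 10 were far higher in R-propranolol replicate 5 than in the other 8 tumors, and they were singled out after their values had been seen. Gpx3, the glutathione peroxidase of plasma, had 15.6, 327, 5.42, 5.04 and 1101 CPM in R-propranolol tumors, against 39.0, 16.5, 70.5 and 2.23 CPM in vehicle tumors. Txnip, which binds and inhibits thioredoxin, was at 518 CPM in replicate 5, against 35.7 to 80.0 CPM in the other R-propranolol tumors and 24.2 to 72.7 CPM in vehicle tumors. Sod2, the mitochondrial superoxide dismutase, was at 459 CPM in replicate 5, against 94.2 to 118 CPM in the other R-propranolol tumors and 96.7 to 112 CPM in vehicle tumors. Nfe2l1, a relative of Nrf2 that acts in the proteasome response, was at 1213 CPM in replicate 5, against 275 to 379.6 CPM in the other R-propranolol tumors and 292 to 373 CPM in vehicle tumors. Muscle markers took 16.6% of the counts of that tumor, and their part in these levels was not tested. Without it, the log2 fold changes of Gpx3, Txnip, Sod2 and Nfe2l1 were 1.44 (SE 1.42), 0.02 (SE 0.37), 0.03 (SE 0.08) and −0.05 (SE 0.12).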
